A study of Mus musculus with 24 samples.

Results

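Translation initiation and elongation factors are the soluble proteins that load ribosomes onto messenger RNA, find the start codon and move the ribosome along the coding sequence. In initiation, eIF2 carries the initiator tRNA to the small ribosomal subunit with the eIF3 complex, the eIF4 factors bring in the capped mRNA, and eIF2B reloads eIF2 with GTP. When eIF2 is phosphorylated in the integrated stress response, eIF2B is inhibited and initiation slows on most mRNAs, while eEF1A and eEF2 deliver tRNA to the elongating ribosome and translocate it. The heart has its own isoform pattern, with Eef1a2 known as the muscle and neuron form of eEF1A. The genes described here were taken by symbol: those that begin with Eif and a number or with Eef, less the eIF2 kinase genes, the genes for the cap-binding protein's inhibitors (4E-BPs), Eef1e1 and 1 other gene not analysed here. The rule chose 56 of 65 such symbols, among 24421 genes in the count files, and used no measured value. It was chosen with earlier results of these data known.

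The 24 samples are heart RNA of male mice at 14 weeks of age, kept on chow and on a mixed background that is mostly C57BL/6N with some 129. Acadl and Acadvl encode the long-chain and very long-chain acyl-CoA dehydrogenases of mitochondrial fatty acid oxidation. Genotypes are given as labelled, with 4 libraries of Acadl KO / Acadvl wt, 5 of Acadl KO / Acadvl Het, 4 of Acadl Het / Acadvl KO, 3 of Acadl Het / Acadvl Het, 4 of Acadl Het / Acadvl wt and 4 of wild type (Acadl wt / Acadvl wt). The 3 main comparisons share no library: Acadl KO / Acadvl wt against wild type, Acadl KO / Acadvl Het against Acadl Het / Acadvl Het, where both sides carry Acadvl Het, and Acadl Het / Acadvl KO against Acadl Het / Acadvl wt, where both sides carry Acadl Het.

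Total counts ran from 34320838 to 51743114 per library. The targeted genes check the labels. Acadvl was at 495 to 734 CPM (counts relative to library size after TMM scaling) in Acadl Het / Acadvl KO hearts, against 1550 to 1743 CPM in Acadl Het / Acadvl wt hearts. Acadl went against the label in both Acadl KO groups. It was at 1697 to 2100 CPM in the libraries labelled Acadl KO / Acadvl wt, against 1324 to 1412 CPM in wild type, and at 1827 to 1933 CPM in those labelled Acadl KO / Acadvl Het, against 1438 to 1568 CPM in Acadl Het / Acadvl Het hearts. Both groups are therefore named by their label, and every direction drawn from them is that of the labels. The 8 ventricular cardiomyocyte markers summed to 66210.56 CPM or more in every library, none was at 0, and in the 3 main comparisons described next none rose and 2, 1 and 3 fell. The 7 hepatocyte markers summed to 9.72 to 12.5 CPM in libraries labelled Acadl KO / Acadvl Het, against 47.3 to 249 CPM in Acadl Het / Acadvl Het hearts, and 7 of 7 were lower in that comparison. They summed to 8.95 to 112 CPM in libraries labelled Acadl KO / Acadvl wt, against 10.6 to 17.3 CPM in wild type, with 1 of 7 higher. In the comparison of Acadl KO / Acadvl Het with Acadl Het / Acadvl Het, 1 atrial, 1 fibroblast, 1 endothelial and 1 Schwann cell marker fell too and 1 leukocyte marker rose, and the atrial markers summed to 136 to 1958 CPM in libraries labelled Acadl KO / Acadvl Het, against 302 to 332 CPM in Acadl Het / Acadvl Het hearts. Of 3 smooth muscle markers, 1 fell in each of the other comparisons, and 1 of 3 Schwann cell markers in that with wild type. The part of these markers in the factor results was not tested. Acadl Het / Acadvl Het replicate 1 stood apart, with 17.3% of its counts on the ribosomal RNA gene Rn45s, against 0.510% and 0.356% in the other libraries of that group, and with 158.5 CPM of the hepatocyte gene Alb. In bulk tissue, fewer cells of a type and less RNA per cell cannot be told apart.

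Of the 56 genes, 55 passed the filter on low counts. The exception was Eif4e1b, a cap-binding paralog, with 1 read over all 24 libraries. In the libraries labelled Acadl KO / Acadvl wt, 29 of 55 factor genes rose against wild type and 2 fell (edgeR quasi-likelihood test, Benjamini-Hochberg adjusted p under 0.05 over 15804 genes). Over all genes tested, 37.2% passed in this comparison, 19.6% higher and 17.6% lower. The median log2 fold change was 0.18 over the factor genes and -0.02 over all genes. In Acadl KO / Acadvl Het against Acadl Het / Acadvl Het hearts, 23 of 55 rose and 1 fell, against 20.1% of all genes higher and 20.5% lower (40.6% in either direction), with medians of 0.16 and -0.02. In Acadl Het / Acadvl KO against Acadl Het / Acadvl wt hearts, 15 of 55 rose and 1 fell, against 12.9% and 11.5% of all genes (24.4% in either direction), with medians of 0.08 and 0.02. In each of the 3, a larger share of the factor genes than of all genes was higher, and a smaller share was lower.

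The 14 genes that rose in all 3 comparisons were Eif4a1, Eif1ad, Eif3a, Eif3c, Eif3d, Eif3j1, Eif3j2, Eif2b1, Eif2b2, Eif2b4, Eif2s2, Eif5, Eif6 and Eif4enif1. Over all genes, 1372 of 15804 (8.68%) rose in all 3. No factor gene fell in all 3, against 6.42% of all genes, and 22 of the 55 passed in none. The 14 included 5 of 14 eIF3 genes and 3 of 5 eIF2B genes. They included none of the 11 genes of the elongation class. Eif3j1 and Eif3j2 were counted from largely the same reads, so these counts hold 1 measurement under 2 names.

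**Figure D1:**
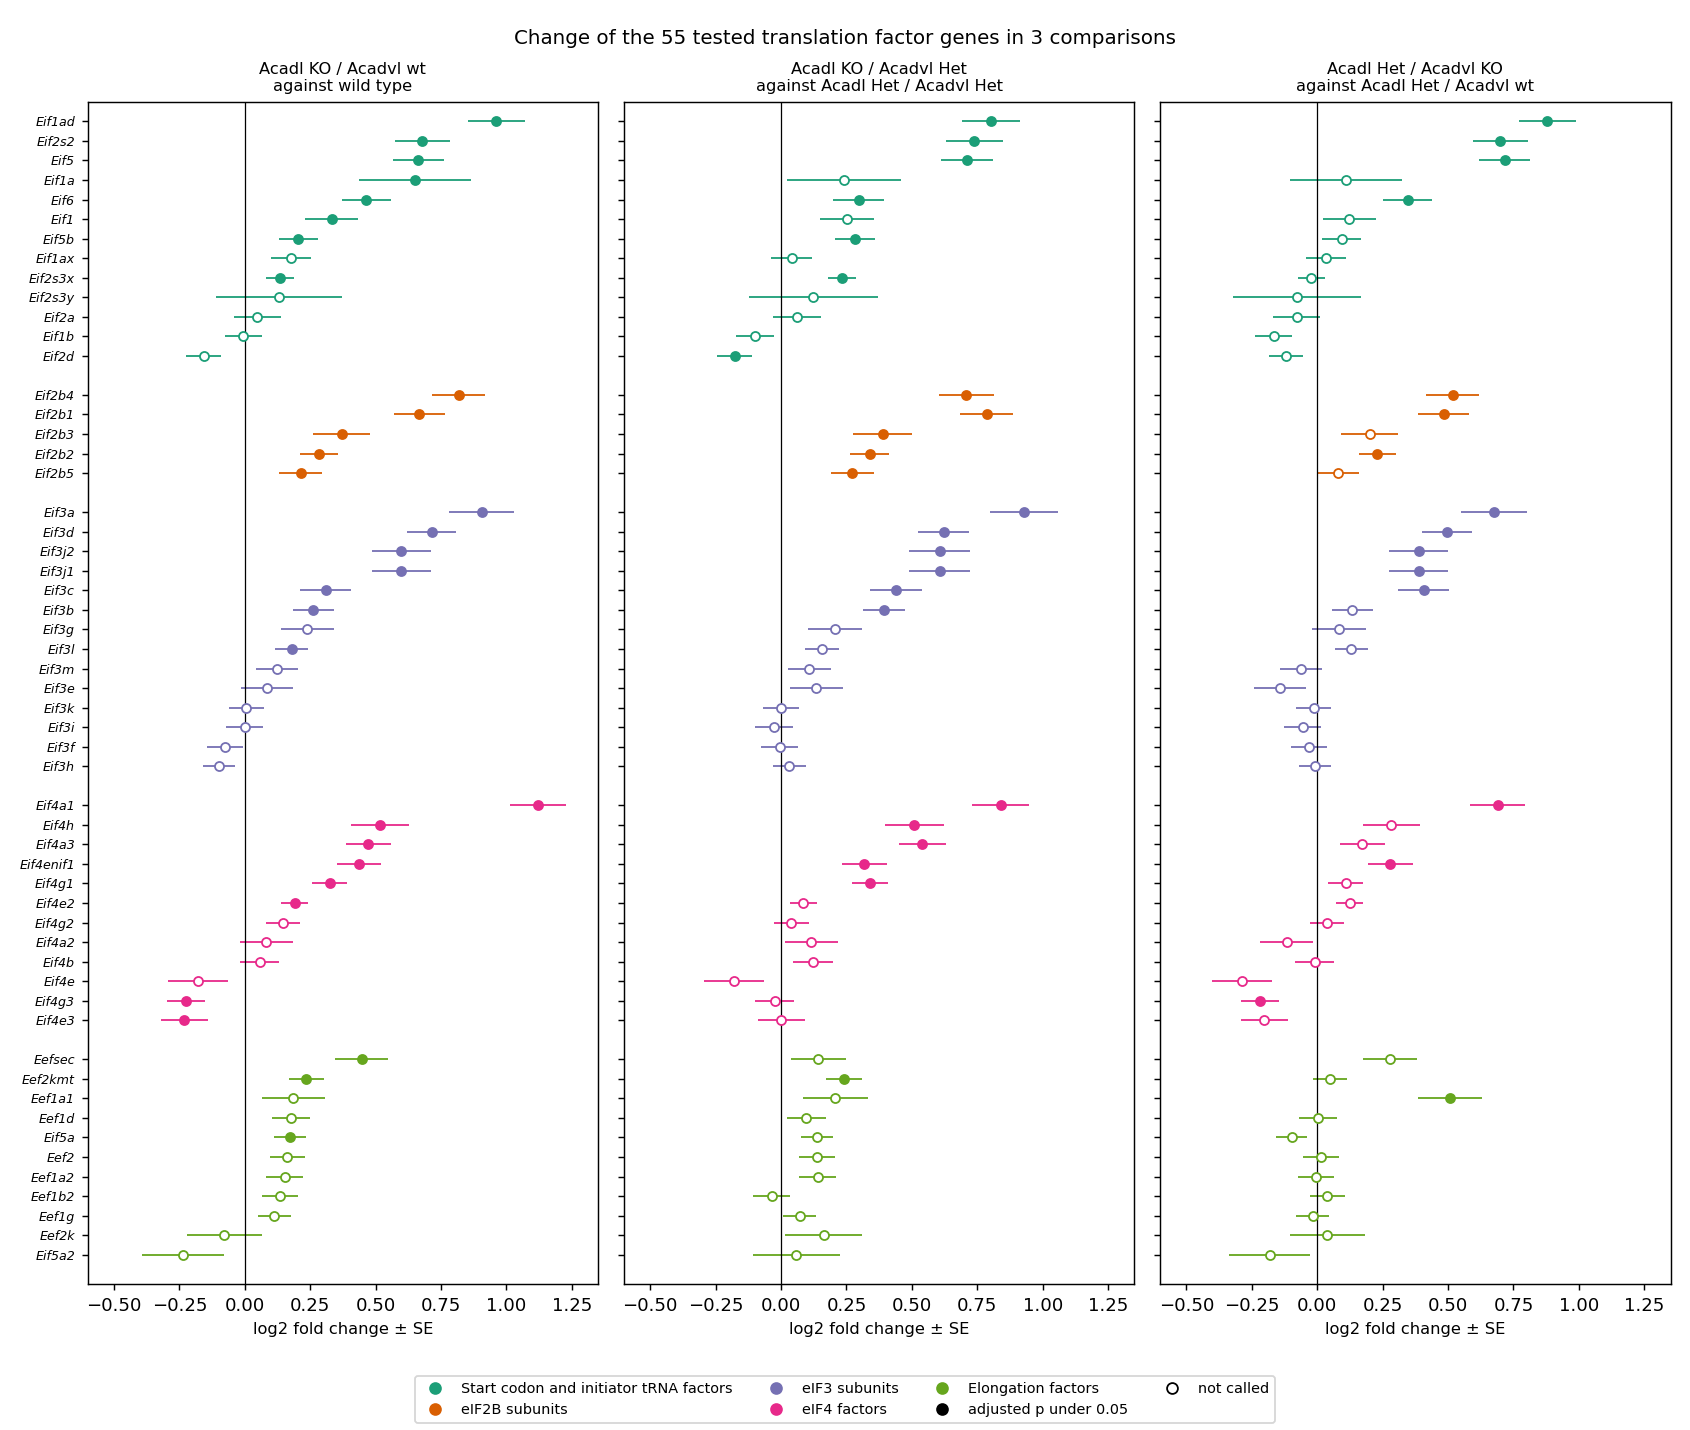
Change of the 55 tested factor genes in the 3 main comparisons, one panel each, as log2 fold change on the x axis with its standard error, genes down the page by role; filled points passed an adjusted p of 0.05. The points lie mostly right of 0 (45, 48 and 35 of 55), with Eif4a1 at 1.12, 0.84 and 0.69.

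The counts depended on some libraries and batches. With RNA isolation batch 2 alone, 26, 22 and 15 genes rose in the 3 comparisons, and with batch 1 alone, where each group has 1 or 2 libraries, 0, 4 and 0 did. Over all genes, 28.6%, 26.9% and 16.7% were called in either direction in batch 2 alone, and 0.534%, 3.87% and 1.29% in batch 1 alone. Of 37 called values of the named genes, none changed sign in either batch, 33 lost the call in batch 1 alone, and 13 were there over 1.5 times smaller on the log2 scale. These 13 included 7 of Acadl Het / Acadvl KO against Acadl Het / Acadvl wt, among them Eif4a1 (0.42), Eif3a (0.33) and Eif2b1 (0.20). Without the libraries above 10 CPM of the hepatocyte gene Alb, 19 genes rose in the Acadl KO / Acadvl wt comparison, which then kept 2 of its 4 Acadl KO / Acadvl wt libraries, and 12 in the Acadvl KO comparison, with 24.4% and 17.4% of all genes called in either direction. All 3 Acadl Het / Acadvl Het libraries were above that level, so the part of the hepatocyte markers in the comparison of Acadl KO / Acadvl Het with that group was not tested. Without Acadl Het / Acadvl Het replicate 1, 23 factor genes rose and 0 fell in that comparison. Over all genes, 5135 of 15982 were then called in either direction, against 6420 of 15804 with that library.

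The cap-binding and helicase genes included Eif4a1, which had the largest change of the 55 genes in the comparison of Acadl KO / Acadvl wt with wild type. Eif4a1 (chromosome 11, 69666936 to 69672423 of mm10, minus strand) encodes an RNA helicase that unwinds the mRNA leader as part of eIF4F. It was at 388, 445, 350 and 334 CPM in libraries labelled Acadl KO / Acadvl wt, against 181, 153, 193 and 168 CPM in wild type. Every library labelled Acadl KO / Acadvl wt was above every wild-type library. The log2 fold change was 1.12 ± 0.11 (SE, adjusted p = 3.36e-07 by edgeR). In libraries labelled Acadl KO / Acadvl Het it was at 349, 338, 341, 325 and 335 CPM, against 193, 160 and 213 CPM in Acadl Het / Acadvl Het hearts. Acadl Het / Acadvl KO hearts had 333, 320, 296 and 249 CPM, against 171, 191, 174 and 202 CPM in Acadl Het / Acadvl wt hearts. These groups did not overlap either, and the log2 fold changes were 0.84 ± 0.11 (SE) and 0.69 ± 0.11 (SE).

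Eif4a1 lies 338 kb from Acadvl on the same chromosome. In the comparison of Acadl Het / Acadvl KO with Acadl Het / Acadvl wt, on a mixed strain background, an effect of the chromosome segment around Acadvl and an effect of the Acadvl genotype cannot be told apart for it. Both sides are labelled Acadvl wt in the comparison of Acadl KO / Acadvl wt with wild type, where Eif4a1 rose too. The part of the segment was not tested in any comparison.

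The paralog Eif4a2, which encodes a closely related helicase, did not follow. It was at 559, 531, 525 and 447 CPM in libraries labelled Acadl KO / Acadvl wt, against 528, 452, 483 and 453 CPM in wild type, and the groups overlapped. Its log2 fold changes were 0.08 ± 0.10, 0.12 ± 0.10 and -0.12 ± 0.10 (SE), and none passed the test. Per kilobase of transcript, Eif4a1 made up 55.4% ± 2.5 of the sum of both in Acadl KO / Acadvl wt, 53.4% ± 1.6 in Acadl KO / Acadvl Het and 52.2% ± 2.1 in Acadl Het / Acadvl KO hearts. In the groups they were compared with, the share was 40.8% ± 3.6 in Acadl Het / Acadvl Het, 38.9% ± 1.8 in Acadl Het / Acadvl wt and 38.0% ± 1.9 in wild-type hearts (SD, n = 3 to 5). The lowest library of the 3 groups with a KO label was at 50.5% and the highest of the others at 43.8%, so the ranges did not overlap; the ratio was chosen after its values were seen and was not tested. Close copies can exchange reads, so both levels are uncertain to that extent. Eif4a2 also overlaps Rfc4 by 640 of its 3185 counted bases, and reads there were counted for both.

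**Figure D2:**
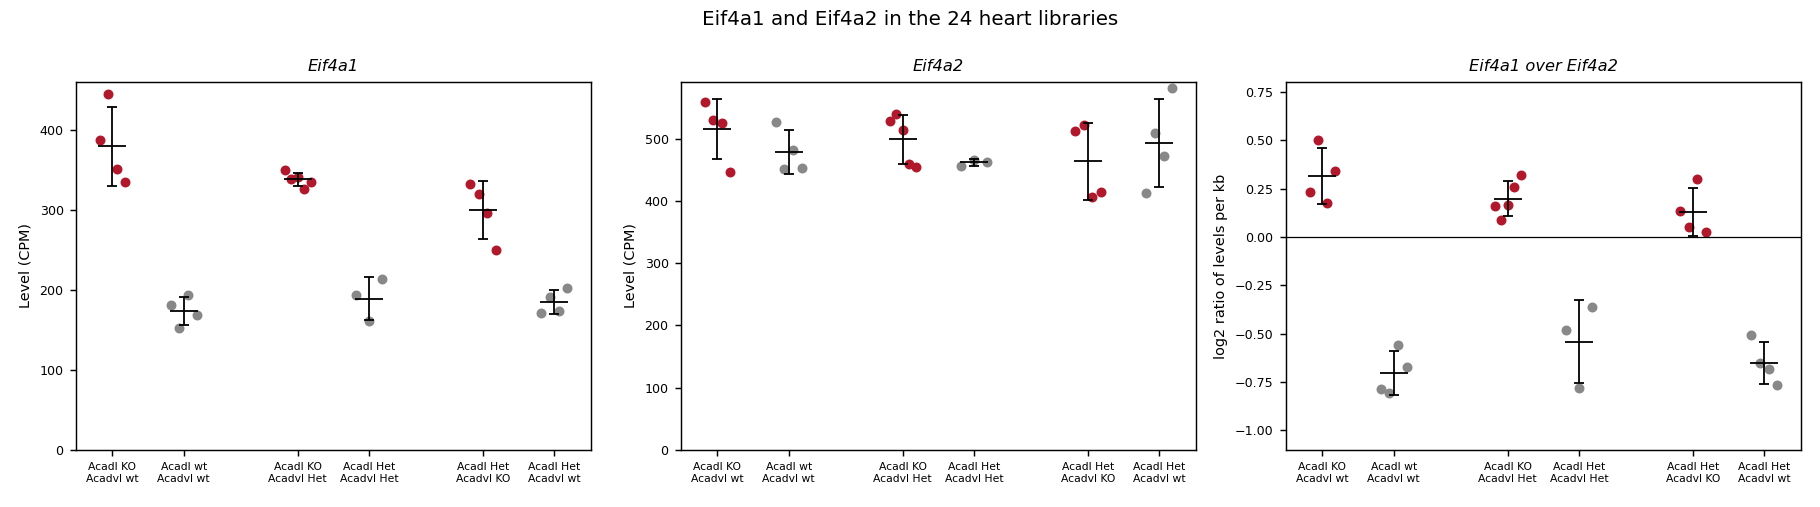
Levels of Eif4a1 and of Eif4a2 in CPM, and the log2 ratio of their levels per kilobase, in each library by genotype; points are libraries and bars are mean ± SD, with each KO-labelled group left of the group it was compared with. The log2 ratio is above 0 in the KO-labelled groups (lowest 0.03) and below 0 in the others (highest -0.36), while the Eif4a2 levels overlap.

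The promoters of Eif4a1, Eif4a2, Eif3a and Eef2 are printed because they belong to the gene that rose most in libraries labelled Acadl KO / Acadvl wt, its paralog that passed no test, the eIF3 subunit gene that rose most and the most abundant factor gene, which passed no test. Each runs from 250 bases before to 50 after the start, 5′ to 3′ on the gene's strand (RefSeq, GRCm38.p6), and capitals mark CACGTG, an E-box, and TGACGT, the core of the cAMP response element, on either strand. Eif4a1 is at chr11:69672374-69672673 (minus), Eif4a2 at chr16:23107218-23107517 (plus), Eif3a at chr19:60790644-60790943 (minus) and Eef2 at chr10:81176381-81176680 (plus).
Eif4a1: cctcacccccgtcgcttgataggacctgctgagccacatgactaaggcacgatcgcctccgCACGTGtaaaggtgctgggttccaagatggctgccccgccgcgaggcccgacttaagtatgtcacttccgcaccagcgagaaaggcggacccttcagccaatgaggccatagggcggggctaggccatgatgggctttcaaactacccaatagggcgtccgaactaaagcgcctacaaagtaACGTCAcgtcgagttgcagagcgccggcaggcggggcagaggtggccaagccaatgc
Eif4a2: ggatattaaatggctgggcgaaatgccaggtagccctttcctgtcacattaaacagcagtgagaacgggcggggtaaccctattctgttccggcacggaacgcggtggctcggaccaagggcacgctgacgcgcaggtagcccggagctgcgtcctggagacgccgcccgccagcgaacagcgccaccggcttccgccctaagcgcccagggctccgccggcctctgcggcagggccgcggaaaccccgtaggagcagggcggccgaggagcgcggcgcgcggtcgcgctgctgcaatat
Eif3a: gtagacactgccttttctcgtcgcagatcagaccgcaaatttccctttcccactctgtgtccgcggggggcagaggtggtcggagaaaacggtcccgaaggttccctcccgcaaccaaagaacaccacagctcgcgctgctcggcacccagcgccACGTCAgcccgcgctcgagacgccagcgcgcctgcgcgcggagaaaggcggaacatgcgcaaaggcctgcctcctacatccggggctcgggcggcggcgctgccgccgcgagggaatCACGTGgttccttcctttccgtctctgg
Eef2: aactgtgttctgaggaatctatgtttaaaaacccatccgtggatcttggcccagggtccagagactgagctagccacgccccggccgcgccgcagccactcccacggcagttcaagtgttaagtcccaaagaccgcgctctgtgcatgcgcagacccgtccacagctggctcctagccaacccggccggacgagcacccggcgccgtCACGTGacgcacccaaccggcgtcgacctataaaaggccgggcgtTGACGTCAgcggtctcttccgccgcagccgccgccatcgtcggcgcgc
The Eif4a1 promoter held CACGTG 189 bases before the start and TGACGT, on the other strand, 7 bases before it. The Eif4a2 window held neither. Eif3a held both, and so did Eef2, where 2 overlapping TGACGT matches on opposite strands form TGACGTCA.

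Of the 56 factor genes, 44 had a promoter in the table, 6 of them more than 1, and a gene counts if any of its promoters holds the motif. CACGTG was in 12 of these 44 (27.3%), against 8.09% of 27025 genes. It was in 2 of the 12 with a promoter that rose in all 3 comparisons (Eif3a and Eif4a1), and in 7 of the 16 that passed in none. TGACGT was in 8 of 44 (18.2%), against 8.37% of all genes, with 3 of 12 and 3 of 16 in the same groups. TGATGNAA, a short form of the element read by ATF4 with C/EBP partners, was in 2 of 44 (4.55%), against 4.51% of all genes, and in 0 of the 12. A match describes the letters of the window and is not a site or a cause.

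The other eIF4A gene, Eif4a3, encodes the helicase of the exon junction complex. It was at 60.2, 58.3, 54.9 and 50.7 CPM in libraries labelled Acadl KO / Acadvl wt, against 39.9, 39.6, 42.1 and 38.5 CPM in wild type, with no overlap, and rose by 0.47 ± 0.09 on the log2 scale. In Acadl KO / Acadvl Het against Acadl Het / Acadvl Het hearts it rose by 0.54 ± 0.09, and in the Acadvl KO comparison its change of 0.17 ± 0.09 (SE) did not pass. Eif4h, a cofactor that stimulates the helicase, rose in the comparisons of both Acadl KO labels, by 0.52 ± 0.11 and 0.51 ± 0.11. Eif4b, the related cofactor, passed in none.

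The eIF4F scaffold genes Eif4g1 and Eif4g3 also parted, with a call for both only in the comparison of Acadl KO / Acadvl wt with wild type. Eif4g1, which bridges the cap-binding protein and eIF3, was at 807, 831, 746 and 743 CPM in libraries labelled Acadl KO / Acadvl wt, against 584, 614, 657 and 624 CPM in wild type. These groups did not overlap, and Eif4g1 rose by 0.32 ± 0.07 there and by 0.34 ± 0.07 in Acadl KO / Acadvl Het against Acadl Het / Acadvl Het hearts. It did not pass in Acadl Het / Acadvl KO against Acadl Het / Acadvl wt hearts. Eif4g3, its paralog, was at 92.7, 94.5, 96.8 and 97.1 CPM in libraries labelled Acadl KO / Acadvl wt, against 110, 107, 116 and 114 CPM in wild type. All 4 were below all wild-type libraries, and Eif4g3 fell by 0.23 (log2, SE 0.07; adjusted p = 0.018 by edgeR). It fell by 0.22 (SE 0.07) in Acadl Het / Acadvl KO against Acadl Het / Acadvl wt hearts as well, while its value of -0.02 ± 0.07 in Acadl KO / Acadvl Het against Acadl Het / Acadvl Het hearts did not pass. Eif4g1 lost no call without any 1 library. Eif4g3 lost its call against wild type without Acadl KO / Acadvl wt replicate 2 (-0.20), within batch 2 alone (-0.19) and, with its value as large, without the libraries above 10 CPM of Alb (-0.23). Its call in Acadl Het / Acadvl KO hearts was lost within batch 2 (-0.11), with the groups alone (-0.22) and without any 1 of 7 libraries: Acadl Het / Acadvl KO replicates 3 and 4, Acadl Het / Acadvl wt replicates 2, 3 and 4, Acadl KO / Acadvl Het replicate 5 and Acadl KO / Acadvl wt replicate 2. Eif4g2, a scaffold without the site for the cap-binding protein, averaged 1031 ± 68 CPM in libraries labelled Acadl KO / Acadvl wt, against 919 ± 62 CPM in wild type (SD, n = 4 each), and passed in no comparison.

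Among cap-binding genes, Eif4e itself passed in none, with log2 fold changes of -0.18 ± 0.11, -0.18 ± 0.12 and -0.29 ± 0.11. Eif4e2, a paralog that binds the cap weakly, rose by 0.19 ± 0.05 in libraries labelled Acadl KO / Acadvl wt, at 57.7, 53.8, 54.4 and 52.7 CPM, against 47.9, 47.1, 49.4 and 46.4 CPM in wild type. Eif4e3 was at 58.2, 61.3, 74.1 and 57.2 CPM in libraries labelled Acadl KO / Acadvl wt, against 74.6, 73.3, 72.3 and 70.4 CPM in wild type. Its groups overlapped through 1 library labelled Acadl KO / Acadvl wt, the value of -0.23 ± 0.09 passed narrowly (edgeR adjusted p = 0.0463), and the call was lost without any 1 of 18 libraries, within either batch, and with RLE size factors, no filter, no batch term, the groups alone or Rn45s left out, with log2 values of -0.31 to -0.18. Eif4enif1, which carries the cap-binding protein into the nucleus and represses its mRNAs, rose in all 3 comparisons, by 0.44 ± 0.08, 0.32 ± 0.09 and 0.28 ± 0.08.

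The eIF3 complex, a large scaffold on the small ribosomal subunit, split into subunit genes that rose and others near 0. In the libraries labelled Acadl KO / Acadvl wt, 7 of 14 eIF3 genes rose, 6 did in Acadl KO / Acadvl Het and 5 in Acadl Het / Acadvl KO hearts, and none fell. Each of these counts holds both Eif3j1 and Eif3j2, which share their reads. Over all genes, 19.6%, 20.1% and 12.9% rose in these comparisons. Eif3a (chromosome 19, 60761116 to 60790693, minus strand), the largest subunit, was at 640, 656, 544 and 483 CPM in libraries labelled Acadl KO / Acadvl wt, against 320, 283, 325 and 282 CPM in wild type. It was at 586, 666, 555, 494 and 506 CPM among libraries labelled Acadl KO / Acadvl Het, against 304, 292 and 292 CPM in Acadl Het / Acadvl Het hearts. The Acadl Het / Acadvl KO hearts had 596, 585, 444 and 415 CPM, against 264, 313, 290 and 375 CPM in Acadl Het / Acadvl wt hearts. No pair of groups overlapped, and Eif3a rose by 0.91 ± 0.13, 0.93 ± 0.13 and 0.67 ± 0.13 (SE; adjusted p = 1.58e-05, 2.80e-05 and 0.000537 by edgeR).

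Eif3d, the subunit that can itself bind the cap, was at 128, 118, 104 and 106 CPM in libraries labelled Acadl KO / Acadvl wt, against 68.2, 65.7, 74.5 and 68.4 CPM in wild type. In libraries labelled Acadl KO / Acadvl Het it was at 112, 109, 110, 103 and 119 CPM, against 72.9, 65.9 and 77.0 CPM in Acadl Het / Acadvl Het hearts. Acadl Het / Acadvl KO hearts had 113, 104, 96.2 and 81.6 CPM, against 64.1, 72.2, 63.6 and 79.3 CPM in Acadl Het / Acadvl wt hearts. Groups were apart in each comparison, and Eif3d rose by 0.71 ± 0.10, 0.62 ± 0.10 and 0.50 ± 0.10. Eif3c, a core subunit, rose by 0.31 ± 0.10, 0.44 ± 0.10 and 0.41 ± 0.10, and its groups overlapped in the comparison of Acadl KO / Acadvl wt with wild type. Eif3j1 and Eif3j2 lie on the same locus of chromosome 2 and were counted from largely the same reads (Spg11 also overlaps them), so their rise of 0.60, 0.61 and 0.39 is 1 measurement.

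Eif3b, another core subunit, rose by 0.26 ± 0.08 in libraries labelled Acadl KO / Acadvl wt and by 0.39 ± 0.08 in Acadl KO / Acadvl Het against Acadl Het / Acadvl Het, and Eif3l rose by 0.18 ± 0.06 in the comparison of Acadl KO / Acadvl wt with wild type. Eif3h, the most abundant per length at 120 CPM per kb over all libraries, was at 145, 141, 146.5 and 129 CPM in libraries labelled Acadl KO / Acadvl wt, against 151, 144, 159 and 147 CPM in wild type. The groups overlapped, and its log2 fold changes were -0.10 ± 0.06, 0.03 ± 0.06 and -0.01 ± 0.06. In all, 7 eIF3 genes passed in no comparison: Eif3e, Eif3f, Eif3g, Eif3h, Eif3i, Eif3k and Eif3m, with log2 fold changes between -0.14 and 0.24.

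All 5 eIF2B genes, which encode the exchange factor that recharges eIF2, rose in the comparisons of both Acadl KO labels, and 3 of 5 did in the Acadvl KO comparison. The shares of all genes that rose in the 3 comparisons were 19.6%, 20.1% and 12.9%. Eif2b4 (chromosome 5, 31187558 to 31193139, minus strand), the delta subunit, was at 93.2, 98.7, 72.5 and 80.5 CPM in libraries labelled Acadl KO / Acadvl wt, against 44.6, 45.5, 55.2 and 50.9 CPM in wild type. It was at 89.0, 72.7, 82.0, 83.3 and 86.8 CPM across libraries labelled Acadl KO / Acadvl Het, against 51.3, 47.6 and 52.9 CPM in Acadl Het / Acadvl Het hearts. Acadl Het / Acadvl KO hearts had 75.8, 80.1, 66.7 and 60.2 CPM, against 48.6, 50.6, 47.1 and 51.7 CPM in Acadl Het / Acadvl wt hearts. None of these pairs of groups overlapped, and Eif2b4 rose by 0.82 ± 0.10, 0.71 ± 0.11 and 0.52 ± 0.10 (SE).

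Eif2b1, the alpha subunit, was at 46.5, 44.6, 45.4 and 36.5 CPM in libraries labelled Acadl KO / Acadvl wt, against 27.9, 26.2, 26.6 and 26.1 CPM in wild type. The gene was at 46.8, 54.3, 41.5, 45.1 and 45.5 CPM among libraries labelled Acadl KO / Acadvl Het, against 28.9, 27.1 and 25.5 CPM in Acadl Het / Acadvl Het hearts. With the label Acadl Het / Acadvl KO it was at 46.5, 42.6, 36.4 and 33.1 CPM, against 25.0, 27.5, 27.5 and 30.9 CPM in Acadl Het / Acadvl wt hearts. It rose by 0.67 ± 0.10, 0.79 ± 0.10 and 0.48 ± 0.10, with no overlap in any of the 3. Eif2b5, the catalytic epsilon subunit, was the most abundant per length of the 5 and rose least. It was at 100, 103, 89.8 and 93.7 CPM in libraries labelled Acadl KO / Acadvl wt, against 80.0, 76.8, 90.7 and 87.1 CPM in wild type, so the groups overlapped. Its change of 0.21 ± 0.08 passed narrowly (edgeR adjusted p = 0.0424), and the call was lost without any 1 of 4 libraries (Acadl KO / Acadvl wt replicates 1 and 2, and wild type replicates 1 and 2), with no filter (0.22) and without the libraries above 10 CPM of Alb (0.21). Its rise of 0.27 ± 0.08 in libraries labelled Acadl KO / Acadvl Het was lost without Acadl Het / Acadvl Het replicate 2 and within batch 2 alone (0.31). The other subunit genes, Eif2b2 and Eif2b3, rose by 0.28 ± 0.07 and 0.37 ± 0.11 in libraries labelled Acadl KO / Acadvl wt.

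Of the 13 genes for start codon and initiator tRNA factors, 8 rose in libraries labelled Acadl KO / Acadvl wt, 6 in Acadl KO / Acadvl Het and 4 in Acadl Het / Acadvl KO hearts. These counts stand against 19.6%, 20.1% and 12.9% of all genes. They include Eif1ad and Eif6, put in this class though their products, described below, are not start codon or initiator tRNA factors. Eif1ad (chromosome 19, 5366813 to 5371511, plus strand), which encodes a nuclear protein with an eIF1A-like domain, was at 54.4, 57.5, 45.0 and 40.3 CPM in libraries labelled Acadl KO / Acadvl wt, against 22.6, 23.9, 26.3 and 27.3 CPM in wild type. Among libraries labelled Acadl KO / Acadvl Het it was at 48.0, 39.1, 42.9, 43.3 and 51.0 CPM, against 26.6, 26.1 and 24.7 CPM in Acadl Het / Acadvl Het hearts. Acadl Het / Acadvl KO hearts had 50.2, 53.1, 49.1 and 39.3 CPM, against 25.6, 26.4, 25.5 and 25.6 CPM in Acadl Het / Acadvl wt hearts. Groups were apart in all 3 comparisons, and Eif1ad rose by 0.96 ± 0.11, 0.80 ± 0.11 and 0.88 ± 0.11 (SE). Its annotated span overlaps Banf1 by 192 bases, and reads there were counted for both.

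Eif2s2, the beta subunit of eIF2, was at 169, 159, 162 and 117 CPM in libraries labelled Acadl KO / Acadvl wt, against 97.8, 86.9, 96.8 and 87.2 CPM in wild type. Eif5, the factor that makes eIF2 hydrolyse its GTP at the start codon, was at 252, 250, 240 and 197 CPM in libraries labelled Acadl KO / Acadvl wt, against 157, 141, 143 and 147 CPM in wild type. In Acadl Het / Acadvl KO hearts Eif5 was at 268, 284, 255 and 219 CPM, against 149, 151, 156 and 165 CPM in Acadl Het / Acadvl wt hearts. Both genes were above every library of the group they were compared with in all 3 comparisons. Eif2s2 rose by 0.68 ± 0.11, 0.74 ± 0.11 and 0.70 ± 0.11, and Eif5 by 0.66 ± 0.10, 0.71 ± 0.10 and 0.72 ± 0.10. The test that the 3 effects are equal, given below, called neither (edgeR unadjusted p = 0.92 and 0.91). Eif6, which keeps the large ribosomal subunit from joining early, rose by 0.46 ± 0.09, 0.30 ± 0.10 and 0.35 ± 0.09.

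**Figure D3:**
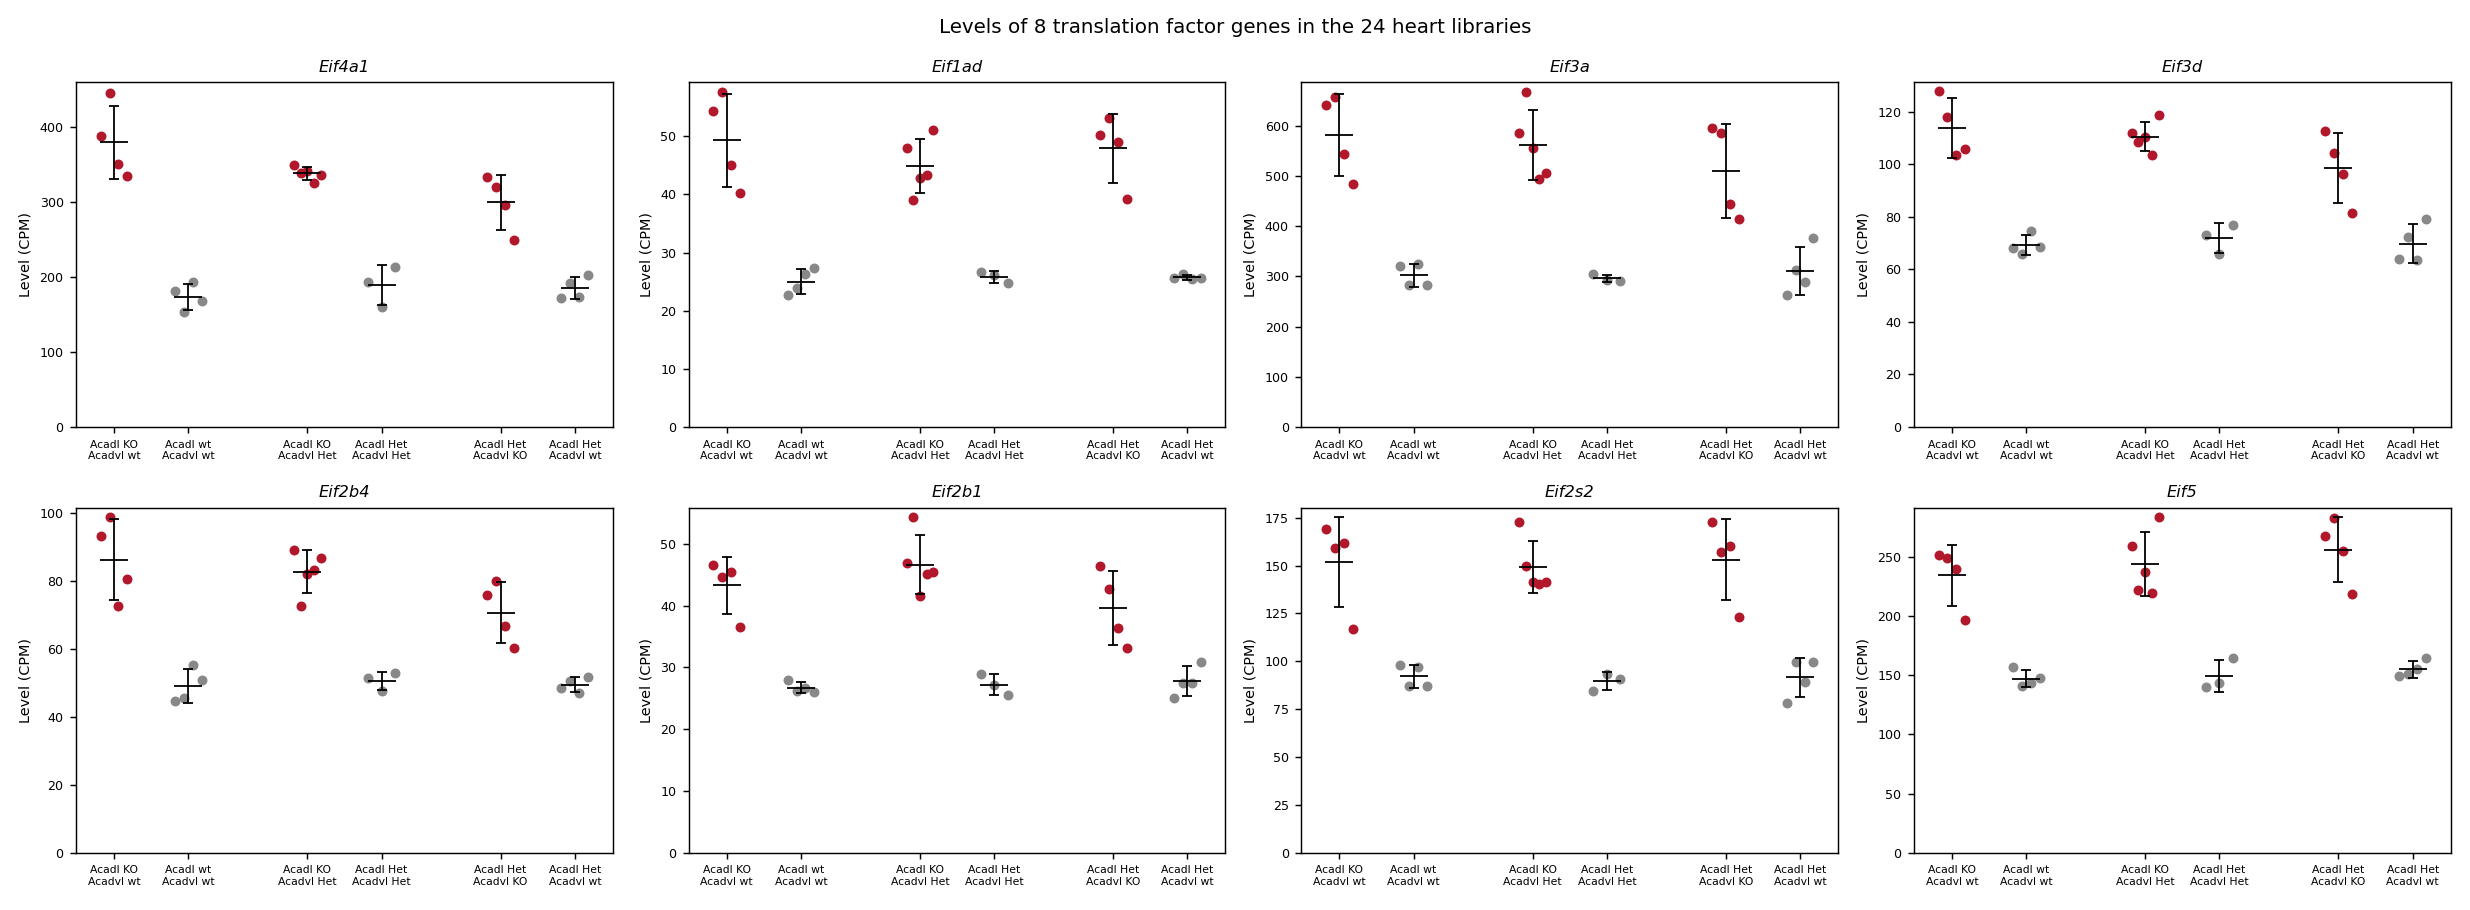
Levels in CPM of 8 factor genes in each of the 24 libraries by genotype, from a y axis that starts at 0; points are libraries, bars are mean ± SD, and each KO-labelled group stands left of the group it was compared with. All 8 genes are higher in every KO-labelled library than in every library of the paired group. The 8 were chosen for large rises in these same comparisons, so this separation is no test. The share of all genes whose groups do not overlap was not counted.

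Eif1, which keeps the ribosome scanning until the start codon pairs, is the most abundant gene of this class per length, at 486 CPM per kb over all libraries. It was at 747, 677, 623 and 602 CPM in libraries labelled Acadl KO / Acadvl wt, against 528, 466, 599 and 551 CPM in wild type. The groups were apart by a small margin, and the call on the rise of 0.33 ± 0.10 was lost without wild type replicate 2 (0.28), without the libraries above 10 CPM of Alb, where the value stayed at 0.33, and within batch 1 alone (0.07). Its paralog Eif1b passed in none, with values of -0.01 ± 0.07, -0.10 ± 0.07 and -0.17 ± 0.07. Eif2d, an initiator tRNA factor that works without GTP, was the only factor gene to fall in Acadl KO / Acadvl Het against Acadl Het / Acadvl Het hearts, by 0.18 (log2, SE 0.07; adjusted p = 0.0391 by edgeR). It was at 35.5, 34.0, 34.4, 35.0 and 40.5 CPM across libraries labelled Acadl KO / Acadvl Het, against 41.2, 40.6 and 39.7 CPM in Acadl Het / Acadvl Het hearts, and the groups overlapped through 1 library. The call was lost with RLE size factors, without a filter, with the groups alone and without any 1 of 18 libraries, with log2 values of -0.19 to -0.15, and within batch 1 alone (-0.08).

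Elongation factor genes were among the most abundant per length. Eef2, the translocase, was at 772 CPM per kb over all libraries and Eef1a2 at 720 CPM per kb, ahead of Eif1 and Eef1a1 (473 CPM per kb). Of 11 elongation genes, 3 rose in libraries labelled Acadl KO / Acadvl wt (Eefsec, Eef2kmt and Eif5a), 1 in Acadl KO / Acadvl Het (Eef2kmt) and 1 in Acadl Het / Acadvl KO hearts (Eef1a1). That is 27.3%, 9.09% and 9.09% higher, against 19.6%, 20.1% and 12.9% of all genes, and none fell. The class holds Eef2k and Eef2kmt, taken by their symbols, which encode enzymes that modify eEF2 and are not elongation factors. Eef2kmt overlaps Alg1 by 467 bases, and reads there were counted for both.

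**Figure D4:**
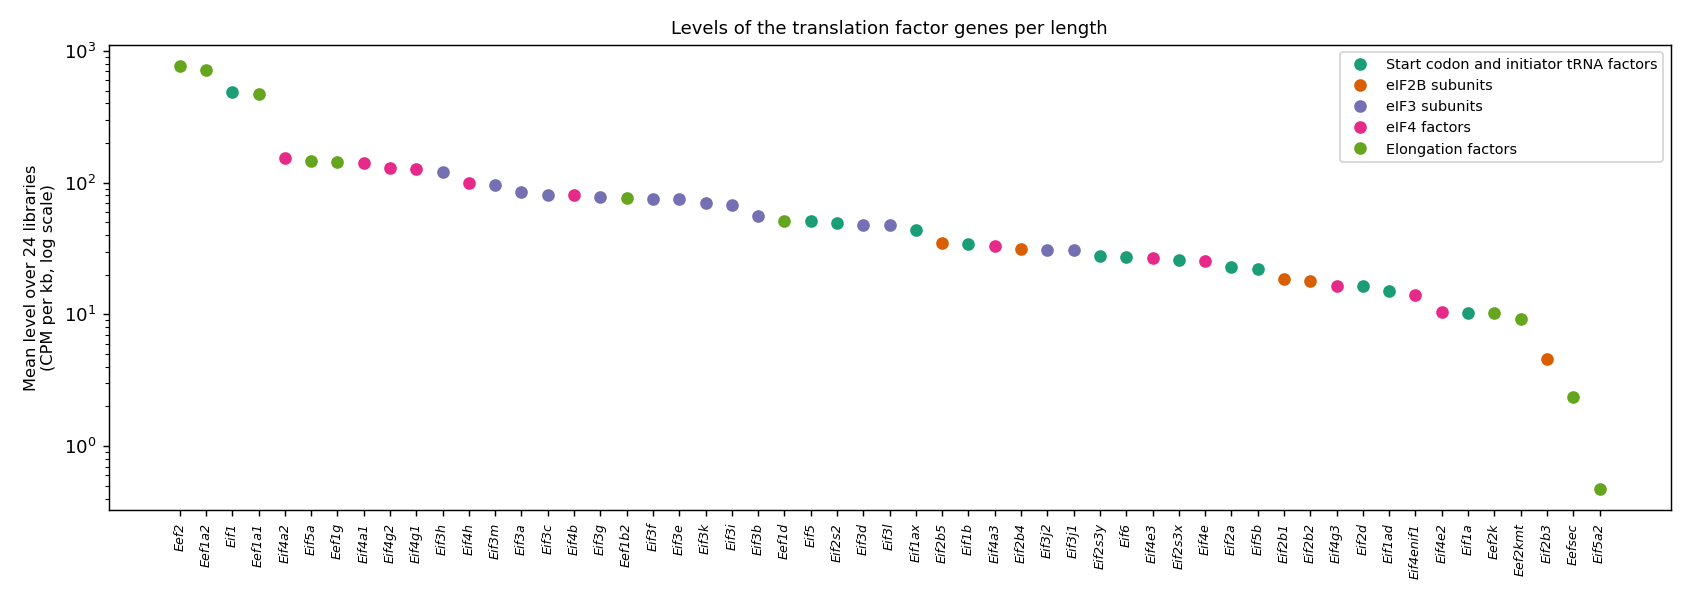
Mean level of 55 factor genes over the 24 libraries in CPM per kb of counted exon length, on a log scale, in falling order and coloured by role; Eif4e1b, with 1 read, is left out. Eef2, Eef1a2, Eif1 and Eef1a1 stand above the others, and Eif5a2 is lowest at 0.472 CPM per kb.

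Eef2 was at 2765, 2542, 2303 and 2281 CPM in libraries labelled Acadl KO / Acadvl wt, against 2129, 2132, 2319 and 2242 CPM in wild type. The groups overlapped, and its log2 fold changes of 0.16 ± 0.07, 0.14 ± 0.07 and 0.02 ± 0.07 did not pass. Eef1a2 gave 0.15 ± 0.07, 0.14 ± 0.07 and 0.00 ± 0.07, and did not pass in any. Eef1a1, the broadly expressed form, was at 1127, 835, 1192 and 1023 CPM across Acadl Het / Acadvl KO hearts, against 708, 742, 719 and 726 CPM in Acadl Het / Acadvl wt hearts. All 4 were above all 4 of the other group, and Eef1a1 rose by 0.51 ± 0.12 (SE, edgeR adjusted p = 0.00415), a call lost within batch 2 alone (0.54) and within batch 1 alone. Per kilobase, Eef1a2 made up 54.4% ± 5.6 of the eEF1A sum in Acadl Het / Acadvl KO hearts, against 63.2% ± 0.7 (SD, n = 4 each) in Acadl Het / Acadvl wt hearts. In libraries labelled Acadl KO / Acadvl wt, Eef1a1 was at 782, 786, 922 and 795 CPM, against 726, 661, 724 and 733 CPM in wild type, and although no library overlapped, the change of 0.19 ± 0.12 did not pass.

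The 4 leukocyte markers summed to 62.5 to 131 CPM in the same Acadl Het / Acadvl KO hearts, against 60.1 to 73.8 CPM in Acadl Het / Acadvl wt hearts, and 1 of 4 rose. The 6 fibroblast markers summed to 817 to 1193 CPM in Acadl Het / Acadvl KO hearts, against 777 to 917 CPM in Acadl Het / Acadvl wt hearts, and none passed. No marker of either list was at 0 in all libraries of a group, and their part in the Eef1a1 result was not tested.

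The effects of the 3 KO labels were then compared with each other. A test that they are equal called 0 of 55 factor genes, against 0.981% of all genes (155 of 15804, edgeR), with a lowest adjusted p of 0.188 for Eif5a. At an unadjusted p under 0.05 there were 5 of 55 (Eif5a, Eif2s3x, Eif4a3, Eif4a1 and Eif4g1), against 13.8% of all genes. limma voom called 0, against 37 of all 15804 genes, and DESeq2 called 2, Eif5a and Eif2s3x, against 2.63% of all genes. A missed threshold does not show that the effects are alike.

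In Acadl KO / Acadvl Het set directly against Acadl Het / Acadvl KO hearts, which reuses libraries of the comparisons above, 4 of 55 genes were higher and none lower, against 8.77% of all genes called (3.3% higher and 5.47% lower). Eif2s3x, the X-linked gamma subunit of eIF2, averaged 103 ± 5.2 CPM in libraries labelled Acadl KO / Acadvl Het (SD, n = 5), against 88.7 ± 3.6 CPM in Acadl Het / Acadvl KO hearts (SD, n = 4). It did not overlap and was higher by 0.23 ± 0.05 on the log2 scale. Eif5a, a factor that carries the modified residue hypusine, averaged 307 ± 14 CPM in libraries labelled Acadl KO / Acadvl Het (SD, n = 5), against 270 ± 15 CPM in Acadl Het / Acadvl KO hearts (SD, n = 4), a difference of 0.18 ± 0.06. The Eif5a gene lies 88.2 kb from Acadvl, so for it too the chromosome segment and the genotype cannot be told apart. Eif4a3 was higher by 0.28 ± 0.08 and Eif4g1 by 0.21 ± 0.06, and the groups overlapped for both. None of the 4 calls was made within batch 1 alone (0.757% of all genes called), within batch 2 alone (0.127%) or when these 2 groups were fitted alone, and without the libraries above 10 CPM of Alb 2 factor genes were called (8.26% of all genes).

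In the comparisons that differ by a heterozygous allele, no factor gene passed the threshold. None was called in Acadl Het / Acadvl wt against wild type (0% of all genes called), in Acadl Het / Acadvl Het against Acadl Het / Acadvl wt (0.00633%) or in Acadl KO / Acadvl Het against Acadl KO / Acadvl wt hearts (0%). At an unadjusted p under 0.05, edgeR gave 1 of 55 in each, against 3.42%, 2.83% and 8.83% of all genes, and DESeq2 and limma voom called 0 in each. Over all genes DESeq2 called 1, 13 and 91 (0.00633%, 0.0823% and 0.576%), and limma voom called 0, 1 and 0.

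Genes that work beside the factors were read from 4 further lists, to be set against the 19.6%, 20.1% and 12.9% of all genes that rose in the 3 main comparisons and the 17.6%, 20.5% and 11.5% that fell. Of 9 release and recycling genes, 4, 5 and 3 rose and none fell, with medians of 0.17, 0.26 and 0.09 on the log2 scale. Abce1, which splits ribosomes after termination, rose by 0.79 ± 0.11 (SE) in libraries labelled Acadl KO / Acadvl wt, and Etf1, the release factor eRF1, by 0.55 ± 0.09. Of 14 regulators that act at the poly(A) tail and the cap, 7, 9 and 7 rose and 2, 2 and 1 fell, with medians of 0.31, 0.33 and 0.24. Pabpc1, the main poly(A)-binding protein, rose by 0.47 ± 0.08 and Mknk2, a kinase of the cap-binding protein, by 0.93 ± 0.18 in libraries labelled Acadl KO / Acadvl wt. Pdcd4, which inhibits the eIF4A helicase, fell by 0.80 (SE 0.13) and Paip2, which inhibits poly(A)-binding protein, fell by 0.40 (SE 0.07) there. Pdcd4 did not pass in the Acadvl KO comparison (-0.28 ± 0.13). Other genes of this list rose in all 3 comparisons, Larp1 by 0.57, 0.52 and 0.35 and Gigyf2 by 0.38, 0.28 and 0.30. Paip2b, the paralog of Paip2, rose by 0.38 ± 0.13 in Acadl KO / Acadvl Het against Acadl Het / Acadvl Het and passed in no other.

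Of 9 genes for the enzymes that make hypusine on eIF5A and diphthamide on eEF2, 3, 2 and 2 rose and 1, 1 and 0 fell. In the comparison of Acadl KO / Acadvl Het with Acadl Het / Acadvl Het, the share that rose is near that of all genes (20.1%). The share that fell there is below that of all genes (20.5%). Dph5, a methyltransferase of diphthamide synthesis, rose by 1.25 ± 0.14, 0.88 ± 0.15 and 0.84 ± 0.14 in the 3 comparisons. Dnajc24, another gene of that pathway, fell by 0.47 (SE 0.15) in libraries labelled Acadl KO / Acadvl wt. It fell by 0.64 (SE 0.15) in Acadl KO / Acadvl Het against Acadl Het / Acadvl Het, and its value of 0.02 in the Acadvl KO comparison did not pass. Of 12 mitochondrial translation factor genes, 0, 1 and 0 rose and 1, 1 and 2 fell, with medians of 0.07, 0.00 and -0.06. Mtfmt, which formylates the mitochondrial initiator tRNA, fell in each of the 3, by 0.47 (SE 0.13), 0.38 (SE 0.13) and 0.41 (SE 0.13).

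Summed over all 56 genes, factor reads came to 13638 ± 949 CPM in libraries labelled Acadl KO / Acadvl wt, against 11451 ± 379 CPM in wild type (SD, n = 4 each). Among libraries labelled Acadl KO / Acadvl Het they came to 13840 ± 447 CPM (SD, n = 5), against 11823 ± 394 CPM in Acadl Het / Acadvl Het hearts (SD, n = 3). The Acadl Het / Acadvl KO hearts had 12928 ± 726 CPM, against 11760 ± 592 CPM (SD, n = 4 each) in Acadl Het / Acadvl wt hearts, and only in that comparison did the sums of the groups overlap. The sum counts the shared Eif3j locus under both names. By class, the eIF2B sum was higher by a ratio of 1.39, 1.40 and 1.22, the eIF3 sum by 1.30, 1.32 and 1.21, the start codon sum by 1.28, 1.26 and 1.18, the eIF4 sum by 1.20, 1.16 and 1.07 and the elongation sum by 1.12, 1.10 and 1.06. The groups overlapped for each class in Acadl Het / Acadvl KO against Acadl Het / Acadvl wt, and for elongation also in Acadl KO / Acadvl wt against wild type. Abundant genes weigh most in such sums, which do not show that a class rose as a whole. Eif3a alone averaged 581 CPM in libraries labelled Acadl KO / Acadvl wt, against 302 CPM in wild type. The eIF3 sums there were 2145 and 1649 CPM. Among elongation genes, only the abundant Eef1a1 was called in Acadl Het / Acadvl KO hearts.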

How the data were processed

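Each library came with a deposited table of unnormalized read counts by gene. Per the file headers, the authors counted primary alignments over exons of mm10 with featureCounts 1.5.2, with no strand option set, and a read over several genes was counted for each, so overlapping genes share reads. The submitters' processing notes name STAR 2.5.1b, featureCounts 1.5.3, mm10 and GRCm38. Libraries are numbered in accession order within a genotype. Whether they are separate mice is not labelled; each p reflects library-to-library spread, which may be technical. Pairs of 1 genotype differed by a chi-square of 14.9 or more per degree of freedom, and none was a copy.

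The fit used edgeR 4.0.16 under R 4.3.3: filterByExpr by genotype (15804 genes kept), TMM factors, 1 robust quasi-likelihood fit of 24 libraries with genotype and RNA isolation batch, and two-sided tests adjusted by Benjamini-Hochberg over all genes (threshold 0.05). The standard error comes from the F statistic. The fits were tested on simulated counts. Alternatives were DESeq2 1.42.0, limma 3.58.1 voom, RLE factors, no filter, no batch term, each batch alone, the compared groups alone, without libraries above 10 CPM of Alb, without Rn45s and without each library. Levels per kb divide CPM by the counted exon length.

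The members, lists and rule for naming genes were chosen with earlier results of these data known. The rule names, per main comparison, up to 8 rising and 8 falling called genes with the largest change and a mean of at least 1 CPM, the most abundant of each class per kb, and paralogs of these. Eif6, Eif4h, Eif4enif1, Eif4b, Eif3b, Eif3c, Eif3l, Eif3j1, Eif3j2, Eif2b2, Eif2b3, Eif2s3x, Eif5a, Eif5a2, Eefsec, Eef2kmt and the eIF3 genes listed as passing nowhere are outside it and were chosen after their values were seen, as were the genes named from the 4 further lists, the paralog shares and the motifs.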

Additional observations from a re-analysis of the deposited data

Results flagged for a closer look

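In 10 of 120 groups of 4 or 5 libraries checked over the named genes, 1 library stood apart from the others of its genotype; chance gives about 1 in 20 such groups. Eef1a1 did so in 3 genotypes: at 922 CPM in Acadl KO / Acadvl wt replicate 3 (others 782 to 795), at 1291 CPM in Acadl KO / Acadvl Het replicate 2 (others 783 to 929) and, at the low end, at 661 CPM in wild type replicate 2 (others 724 to 733). Eef1a2 was low at 1371 CPM in Acadl Het / Acadvl wt replicate 3 (others 1432 to 1444) and high at 1520 CPM in wild type replicate 3 (others 1354 to 1376). In Acadl Het / Acadvl wt replicate 2, Eif1ad was at 26.4 CPM (others 25.5 to 25.6) and Eif1b at 33.5 CPM (others 30.5 to 30.9). Eif2d was at 40.5 CPM in Acadl KO / Acadvl Het replicate 5 (others 34.0 to 35.5), Eif3h at 152 CPM in Acadl Het / Acadvl KO replicate 3 (others 143 to 144) and Eif4g2, at the low end, at 929 CPM in Acadl KO / Acadvl wt replicate 4 (others 1059 to 1068).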

How the results depend on the processing

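No called value of a named gene changed sign under any alternative, and 29 of 37 kept their call under every alternative other than batch 1 alone. No paired analysis was possible because the library numbers follow accession order and pair nothing. For Acadl KO / Acadvl wt against wild type, 29 factor genes rose, 0 did with batch 1 alone and 19 without the libraries above 10 CPM of Alb, and leaving out 1 library gave 22 to 33. The 2 that fell became 1 with RLE factors, with no filter, with no batch term, with the groups alone, without Rn45s or without the Alb libraries, 0 in either batch alone, and 0 to 2 without 1 library. For Acadl KO / Acadvl Het against Acadl Het / Acadvl Het, 23 rose, 4 with batch 1 alone and 21 to 27 without 1 library. The 1 that fell became 0 with RLE factors, no filter, batch 1 alone or the groups alone, and 0 to 1 without 1 library. For Acadl Het / Acadvl KO against Acadl Het / Acadvl wt, 15 rose, 0 with batch 1 alone and 11 to 19 without 1 library. The 1 that fell became 0 with batch 1 alone or the groups alone, and 0 to 2 without 1 library. For Acadl KO / Acadvl Het against Acadl Het / Acadvl KO, the 4 calls became 2 with no filter or without the Alb libraries, 0 in either batch alone or with the groups alone, and 1 to 6 without 1 library. The counts over all genes moved too when 1 library was left out, with 15771 to 16002 genes tested. In the 3 main comparisons, 4642 to 6070, 4683 to 6578 and 2774 to 3988 genes were called in either direction. Between Acadl KO / Acadvl Het and Acadl Het / Acadvl KO, 350 to 2010 were. The equality test went to 2 calls with DESeq2. The causes were not tested, though batch 1 holds 9 of the 24 libraries, and a lone library of a group is there assumed to vary like the others. Without the Alb libraries no Acadl Het / Acadvl Het heart is left, so comparisons with that group and the equality test could not be fitted, and the equality test needs more groups than a fit of 1 comparison alone.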
